A study of Mus musculus with 110 samples.

Results

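The 10 genes described here, Sfmbt2, Abcg2, Chdh, Emilin2, AW551984, Pcdh20, Slc5a5, Npsr1, Pla2g4e and Klk6, were picked from the 24056 gene rows of a mouse RNA-seq count table for high levels in R6/2 mice relative to their controls in RNA pulled down on tagged ribosomes. The study delivered zinc-finger protein (ZFP) repressors of mutant huntingtin, or a control construct named Delta, with cell-type specific AAVs to astrocytes or neurons. It then sequenced RiboTag pulldowns (IP) and the RNA from which they were taken (Input). There were 4 conditions: RD (R6/2 + Delta), RZ (R6/2 + ZFP), NZ (NCAR + ZFP) and ND (NCAR + Delta), where NCAR is the genotype set against R6/2 and every sample, NCAR included, carries the same R6/2 strain label. The 4 sets were MG and n_ZFP_a_Rpl, labelled astrocytes, and hSyn and n_ZFP_n_Rpl, labelled neurons, with 63 IP and 47 Input libraries in all. Each group held 4 libraries, except 3 for RD and 5 for ND in hSyn and 3 for RD in n_ZFP_a_Rpl, and no Input of the MG set was analysed here. The labels do not give the tissue, the age, the promoter of each AAV or the cell that carried the ZFP in each set. They number the replicates without saying that each is a separate animal, so p-values measure only the spread between these samples.

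R6/2 mice carry a transgene with the expanded first exon of human huntingtin and are a fast model of Huntington's disease. The disease is known for falling levels of neuronal identity genes in the striatum, while some genes that are normally low come up. RiboTag puts an HA tag on a ribosomal protein in one cell type, so that its ribosomes, and the RNA on them, can be pulled out of mixed tissue with an antibody. The genes described here share no pathway. They encode a chromatin protein (Sfmbt2), a drug efflux pump of brain capillaries (Abcg2), a mitochondrial enzyme that oxidises choline to betaine aldehyde (Chdh), an extracellular matrix glycoprotein (Emilin2), a cell adhesion protein (Pcdh20), the sodium/iodide cotransporter best known from the thyroid (Slc5a5), the neuropeptide S receptor (Npsr1), an enzyme that makes N-acyl phosphatidylethanolamines (Pla2g4e) and a secreted serine protease of oligodendrocytes (Klk6).

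The genes lay on 7 chromosomes in GRCm38.p6 and each is annotated as protein coding. Sfmbt2 spans chromosome 2, bases 10370440 to 10595253, and 72 other annotated genes overlap it, most of them microRNAs. Chdh spans chromosome 14, bases 30008901 to 30040468, and overlaps Cacna1d, a calcium channel gene. Since the strand setting of the counting is not given, reads in the shared stretches of Sfmbt2 and Chdh cannot be assigned with certainty. Abcg2 lies on chromosome 6, bases 58584491 to 58692451. Npsr1 (24097912 to 24317590) and AW551984 (39587396 to 39604774) are on chromosome 9, Pla2g4e (120166412 to 120245630) is on chromosome 2, and Slc5a5 (70882885 to 70892785) is on chromosome 8. Emilin2 is on chromosome 17 (71252172 to 71311556), Pcdh20 on chromosome 14 (88464743 to 88471396) and Klk6 on chromosome 7 (43824438 to 43832027).

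Promoters are shown for Sfmbt2, Abcg2 and Chdh because these were the genes called higher in RZ than in NZ in all 4 IPs. Each runs from 250 bases before to 50 bases after an annotated transcript start, 5′ to 3′ on the gene's strand, from RefSeq on GRCm38.p6, with every CG in capitals. RefSeq lists 2 such windows for Sfmbt2 and 3 each for Abcg2 and Chdh. The first listed is shown, and its start need not be the gene start given above.
Sfmbt2, chr2:10370201-10370500, plus strand: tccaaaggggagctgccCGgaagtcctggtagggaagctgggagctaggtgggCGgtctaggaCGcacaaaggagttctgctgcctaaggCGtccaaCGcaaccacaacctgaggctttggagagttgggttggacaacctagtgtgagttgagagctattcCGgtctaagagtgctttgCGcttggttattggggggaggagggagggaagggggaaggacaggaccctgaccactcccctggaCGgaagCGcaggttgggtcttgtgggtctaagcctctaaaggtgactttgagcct
Abcg2, chr6:58584283-58584582, plus strand: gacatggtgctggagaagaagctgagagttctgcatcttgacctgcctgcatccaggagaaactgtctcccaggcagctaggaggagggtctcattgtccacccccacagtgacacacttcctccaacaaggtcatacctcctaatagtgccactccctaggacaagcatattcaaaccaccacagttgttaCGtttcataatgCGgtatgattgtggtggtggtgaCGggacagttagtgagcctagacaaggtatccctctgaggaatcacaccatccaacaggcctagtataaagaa
Chdh, chr14:30008750-30009049, plus strand: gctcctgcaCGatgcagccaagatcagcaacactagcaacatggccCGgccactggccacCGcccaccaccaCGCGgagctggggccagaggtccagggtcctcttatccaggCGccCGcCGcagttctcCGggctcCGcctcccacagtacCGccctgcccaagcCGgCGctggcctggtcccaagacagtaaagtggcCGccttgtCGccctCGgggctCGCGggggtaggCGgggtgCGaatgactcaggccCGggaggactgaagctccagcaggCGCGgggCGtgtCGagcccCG
The 3 windows differed in base make-up. Chdh held 26 CG, Sfmbt2 9 and Abcg2 3, against a median of 7 over the first listed promoters of 27025 genes and of 7 over the 10 genes. On either strand, the letters TATAAA were found in the Abcg2 window and in no other of the 10, against 14.2% of all promoters. GGGCGG, which itself holds a CG, was found in 4 of the 10, Sfmbt2 and Chdh among them, against 35.9% of all promoters. The cAMP response element TGACGTCA was found in 0 of the 10 and in 1.88% of all promoters. These are matches of letters and say nothing of binding.

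Depth was 34763967 to 72623472 counts a library in the IPs and 26369041 to 44176925 in the Inputs, and all 10 genes passed the filter on low counts in all 7 sets of libraries. Levels are CPM, counts scaled to the same library total, with TMM factors taken within a set and fraction, so they are compared within a gene and not between genes. The astrocyte label was borne out: the summed CPM of 10 astrocyte markers had group medians of 11239 to 23409 in the astrocyte IPs, against 1587 to 6001 in the neuron IPs. Neuronal markers were nevertheless present in the astrocyte IPs, where 8 pan-neuronal genes summed to group medians of 3993 to 5458 CPM, against 5102 to 7556 CPM in the neuron IPs. In RD, RZ, NZ and ND of n_ZFP_a_Rpl their medians were 3993, 5042, 5410 and 5422.5 CPM in the IP. The Input had 3606, 4235, 4666 and 4548 CPM, so these markers were not depleted in that astrocyte IP. Astrocyte markers in hSyn had group medians of 2438 to 6001 CPM in the IP, against 3303 to 6218 CPM in the Input. In n_ZFP_n_Rpl they had 1587 to 4195 CPM, against 3855 to 7750 CPM. Oligodendrocyte markers had group medians of 1276 to 3518 CPM in the IPs, against 4626 to 7312 CPM in the Inputs. Endothelial and mural markers had group medians of 26.0 to 61.6 CPM in the IPs, against 164 to 212 CPM in the Inputs. Tek, an endothelial receptor, was under 1 CPM in every IP group, and Cldn5, a tight junction protein, in all but hSyn ND. In the hSyn set the numbers of IP and Input libraries did not match throughout: IP ND 2, 3 and 4 deviated from their group most like Input ND 3, 4 and 5 (r of 0.74, 0.61 and 0.66, against −0.02, −0.27 and −0.12 for the same number). IP NZ 5 had no Input of its number and was most like Input NZ 4 (r of 0.70). These libraries stay within their own condition, so no comparison between conditions depends on it, but IP NZ 5 and Input NZ 4 enter IP against Input.

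In RD against ND, the contrast on which the genes were picked, they did not move as 1 group. Sfmbt2, Abcg2, Chdh, Emilin2 and AW551984 had every RD library above every ND library in all 4 IPs, astrocyte and neuron alike. Pcdh20 did so in MG, hSyn and n_ZFP_n_Rpl, Slc5a5 in both neuron IPs, Npsr1 in MG and Pla2g4e in n_ZFP_n_Rpl. Klk6 did so in none: its fitted log2 difference was 0.22 in MG, −0.69 in n_ZFP_a_Rpl, −2.07 in hSyn and −0.09 in n_ZFP_n_Rpl, and calling it a gene that is higher in R6/2 pulldowns goes against these values. By set, 7 of the 10 genes had RD wholly above ND in MG, 5 in n_ZFP_a_Rpl, 7 in hSyn and 8 in n_ZFP_n_Rpl, where 19.8%, 21.5%, 23.9% and 21.9% of all genes tested did so. Since these values chose the genes, they are given as a description with no test. In RNA from many cells, fewer cells of a type and less RNA per cell cannot be told apart, here and below.

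**Figure D1:**
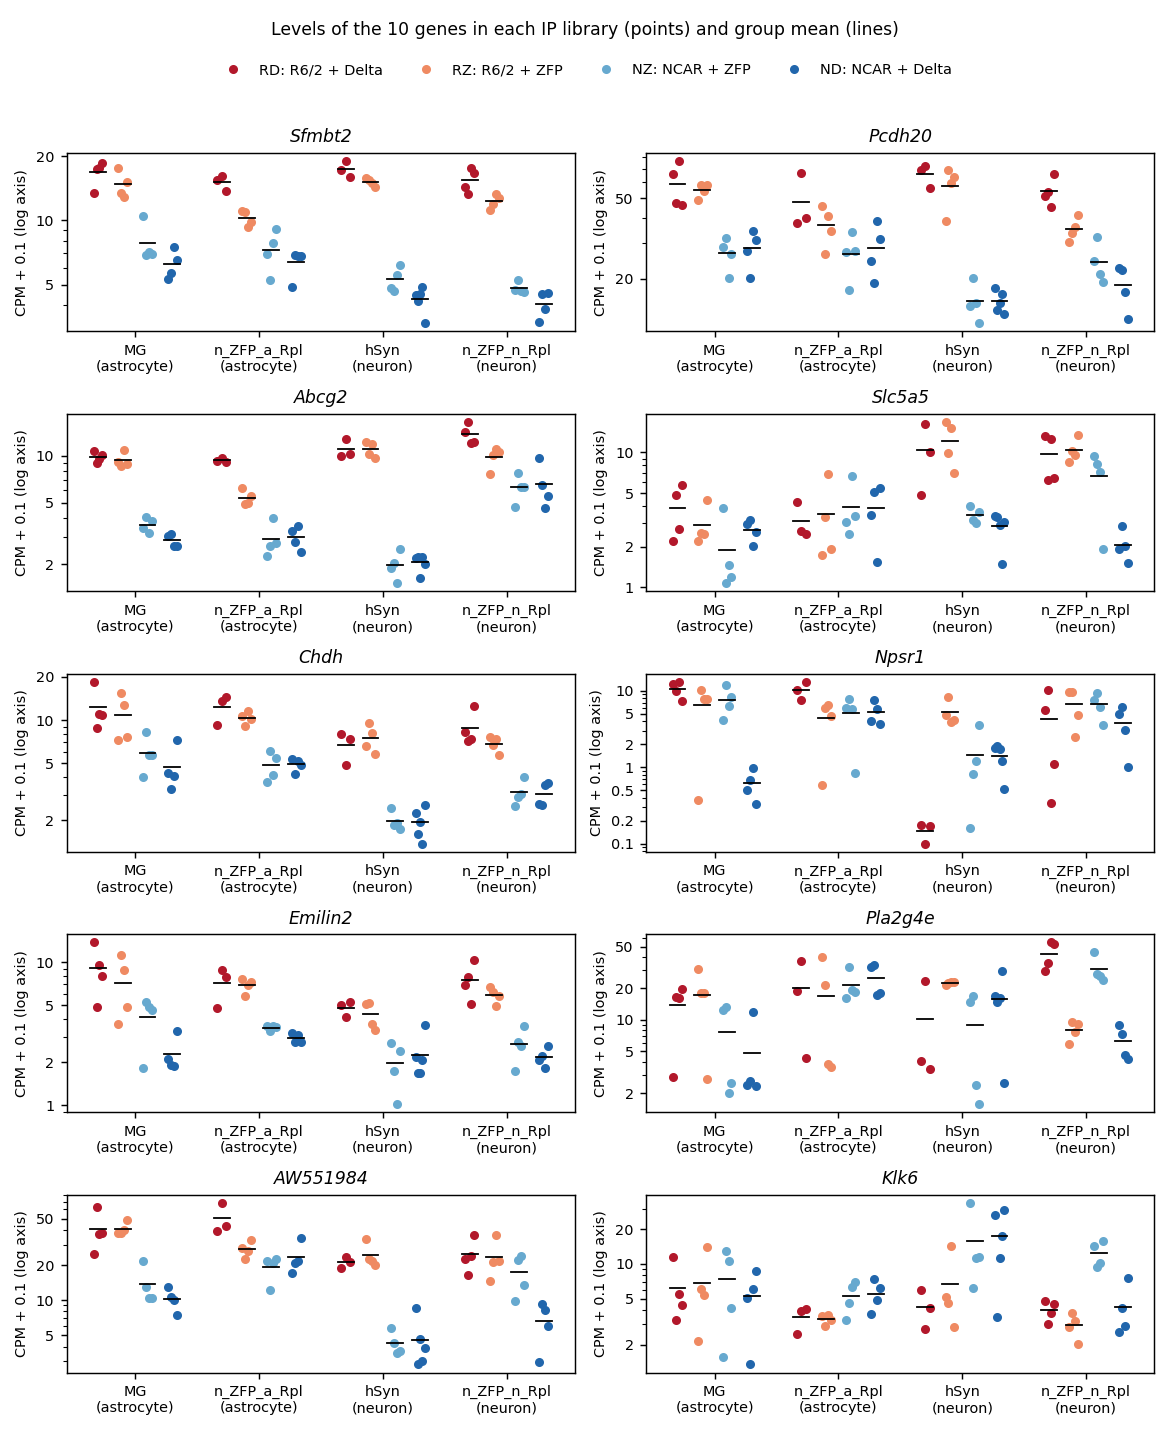
Level of each of the 10 genes in each IP library, as CPM + 0.1 on a log axis, with 1 panel a gene. Points are libraries and lines are group means, with RD, RZ, NZ and ND from left to right in each set. Sfmbt2 shows both R6/2 conditions above both NCAR conditions in every set, and Abcg2 does so in all but n_ZFP_n_Rpl, where RZ overlaps NZ and ND. Npsr1 and Pla2g4e show libraries of 1 group far apart.

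Sfmbt2, a Polycomb group protein whose MBT repeats bind methylated histones, was higher in R6/2 in every set, with Delta and with ZFP. In MG IPs it had 13.4, 17.4, 17.5 and 18.5 CPM in RD and 17.4, 13.4, 12.8 and 15.03 CPM in RZ, against 10.4, 6.81, 7.01 and 6.89 CPM in NZ and 5.19, 5.56, 7.36 and 6.40 CPM in ND. In hSyn IPs it had 17.1, 18.8 and 15.9 CPM in RD and 15.8, 15.3, 14.8 and 14.3 CPM in RZ, against 4.72, 4.58, 5.45 and 6.04 CPM in NZ and 4.37, 4.10, 4.40, 4.77 and 3.21 CPM in ND. The R6/2 and NCAR libraries of Sfmbt2 did not overlap in either set. Means in n_ZFP_a_Rpl IPs were 15.04 ± 1.28 CPM in RD (SD, n = 3) and 10.2 ± 0.850 CPM in RZ, against 7.18 ± 1.62 CPM in NZ and 6.25 ± 0.996 CPM in ND (n = 4 each). Means in n_ZFP_n_Rpl IPs were 15.3 ± 2.00 CPM in RD and 12.2 ± 0.921 CPM in RZ, against 4.71 ± 0.301 CPM in NZ and 3.96 ± 0.597 CPM in ND (SD, n = 4 each). The levels with ZFP in n_ZFP_a_Rpl lay between those of the Delta libraries of R6/2 and the NCAR libraries.

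Abcg2 encodes the ATP-driven efflux pump known as breast cancer resistance protein, which sits in the luminal membrane of brain capillaries. In hSyn IPs it had 9.93, 12.8 and 10.3 CPM in RD and 12.2, 10.2, 11.8 and 9.58 CPM in RZ, against 1.78, 1.95, 1.41 and 2.43 CPM in NZ and 2.09, 2.11, 1.52, 2.13 and 1.91 CPM in ND. The lowest R6/2 library of Abcg2 in hSyn thus stood far above the highest NCAR library. In n_ZFP_a_Rpl IPs Abcg2 had 9.24, 9.53 and 9.004 CPM in RD and 6.14, 4.80, 4.84 and 5.38 CPM in RZ, against 2.15, 2.54, 3.89 and 2.66 CPM in NZ and 3.18, 2.67, 3.43 and 2.30 CPM in ND. Here RD, RZ and the NCAR libraries did not overlap, with RD on top, RZ in between and both NCAR groups below. Means in MG IPs were 9.78 ± 0.761 CPM in RD and 9.30 ± 1.08 CPM in RZ, against 3.51 ± 0.384 CPM in NZ and 2.76 ± 0.274 CPM in ND (SD, n = 4 each). In n_ZFP_n_Rpl IPs they were 13.7 ± 2.15 CPM in RD and 9.80 ± 1.54 CPM in RZ, against 6.17 ± 1.26 CPM in NZ and 6.47 ± 2.19 CPM in ND (SD, n = 4 each). There the RZ libraries of Abcg2, from 7.59 CPM up, overlapped NZ and ND, which reached 7.64 and 9.54 CPM. Endothelial and mural markers come from the cells in which Abcg2 is best known. In the hSyn IPs they summed to 31.0 to 38.3 CPM in RD and 37.0 to 46.0 CPM in RZ. NCAR libraries had 31.1 to 55.2 CPM in NZ and 44.4 to 52.3 CPM in ND, with RD below ND. In n_ZFP_a_Rpl IPs these markers summed to 53.6 to 58.3 CPM in RD and 41.7 to 45.5 CPM in RZ. There NZ had 47.6 to 57.2 CPM and ND 44.6 to 49.6 CPM, with RD above RZ and ND. In MG IPs RD had 46.99 to 55.4 CPM, below ND at 57.6 to 63.7 CPM. In n_ZFP_n_Rpl IPs RD and ND overlapped. The part of such RNA in the Abcg2 levels was not tested.

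Chdh, the mitochondrial choline dehydrogenase, and Emilin2, an extracellular matrix glycoprotein, were higher in R6/2 in all 4 IPs with Delta. In n_ZFP_a_Rpl IPs Chdh had 9.07, 13.4 and 14.5 CPM in RD and 10.5, 8.95, 11.4 and 10.1 CPM in RZ, against 3.58, 6.03, 4.07 and 5.32 CPM in NZ and 5.30, 4.12, 5.11 and 4.77 CPM in ND. In hSyn IPs Chdh averaged 6.63 ± 1.67 CPM in RD (SD, n = 3) and 7.45 ± 1.66 CPM in RZ (n = 4), against 1.89 ± 0.314 CPM in NZ (n = 4) and 1.85 ± 0.478 CPM in ND (n = 5). In both sets the groups of the 2 genotypes did not overlap for Chdh. Emilin2 in n_ZFP_n_Rpl IPs had 6.81, 7.78, 4.99 and 10.3 CPM in RD and 6.66, 6.11, 4.84 and 5.73 CPM in RZ, against 1.64, 2.67, 2.49 and 3.51 CPM in NZ and 1.98, 2.11, 1.74 and 2.51 CPM in ND. In MG IPs the spread of Emilin2 was wider: RD libraries held 13.6, 4.75, 9.53 and 7.89 CPM and RZ libraries 3.63, 11.2, 8.74 and 4.78 CPM, against 1.72, 5.16, 4.77 and 4.57 CPM in NZ and 2.00, 1.83, 1.79 and 3.20 CPM in ND. The RZ and NZ libraries of Emilin2 overlapped in MG, where the summed oligodendrocyte markers ranged from 1761 to 3861 CPM in RZ and from 1891 to 4639 CPM in NZ, and the part of such RNA in these levels was not tested.

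AW551984 and Pcdh20, a cell adhesion protein of the protocadherin family, separated the genotypes without overlap in hSyn. There AW551984 had 18.6, 23.3 and 21.2 CPM in RD and 33.2, 22.5, 21.6 and 20.02 CPM in RZ, against 5.66, 4.19, 3.41 and 3.55 CPM in NZ and 8.51, 2.71, 4.55, 2.89 and 3.82 CPM in ND. Pcdh20 in the same IPs had 69.2, 71.7 and 55.9 CPM in RD and 38.7, 68.9, 59.1 and 63.9 CPM in RZ, against 14.6, 20.1, 15.1 and 12.003 CPM in NZ and 17.9, 13.9, 15.03, 16.8 and 13.2 CPM in ND. The lowest R6/2 library of each stood above its highest NCAR library. In n_ZFP_n_Rpl IPs the NCAR groups of AW551984 differed from each other: RD held 22.3, 16.4, 23.7 and 36.4 CPM and RZ 14.5, 21.4, 36.1 and 21.6 CPM, against 9.69, 21.9, 24.0 and 13.5 CPM in NZ and 2.84, 9.24, 8.06 and 5.87 CPM in ND. The NZ libraries of AW551984 there overlapped both R6/2 groups, and the ND libraries overlapped neither. Pcdh20 in n_ZFP_n_Rpl IPs averaged 54.0 ± 8.76 CPM in RD and 35.2 ± 4.52 CPM in RZ, against 24.2 ± 5.71 CPM in NZ and 18.6 ± 4.71 CPM in ND (SD, n = 4 each).

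Slc5a5, the sodium/iodide cotransporter, had RD wholly above ND in both neuron IPs, while the groups overlapped in both astrocyte IPs. In hSyn IPs it had 4.74, 16.2 and 10.1 CPM in RD and between 6.89 and 16.8 CPM in the 4 RZ libraries, against 3.92, 3.05, 2.90 and 3.53 CPM in NZ and 3.31, 3.24, 2.79, 1.40 and 2.97 CPM in ND. In n_ZFP_n_Rpl IPs it had 13.2, 6.14, 12.5 and 6.38 CPM in RD and 8.45, 10.2, 9.51 and 13.4 CPM in RZ, against 9.32, 8.04, 7.06 and 1.83 CPM in NZ and 1.83, 2.75, 1.92 and 1.41 CPM in ND. In n_ZFP_n_Rpl 3 of the 4 NZ libraries stood with R6/2 and NZ 4 with ND. In the astrocyte IPs the Slc5a5 means of RD and ND were 3.77 ± 1.69 and 2.59 ± 0.506 CPM in MG (SD, n = 4 each), and 3.03 ± 1.02 (n = 3) and 3.77 ± 1.78 CPM (n = 4) in n_ZFP_a_Rpl.

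Npsr1, the G protein-coupled receptor of neuropeptide S, varied widely between libraries of 1 group. In MG IPs it had 12.1, 9.74, 12.9 and 7.29 CPM in RD and 0.267, 9.998, 7.65 and 7.71 CPM in RZ, against 4.09, 11.9, 6.19 and 8.17 CPM in NZ and 0.399, 0.590, 0.873 and 0.234 CPM in ND. ND was low throughout in MG, and RZ 1 was as low as ND. In hSyn IPs the order was the opposite, with 0.0744, 0 and 0.0707 CPM in RD (4, 0 and 4 reads) and 4.70, 8.11, 3.86 and 4.09 CPM in RZ, against 0.0613, 0.720, 1.10 and 3.47 CPM in NZ and 1.70, 1.77, 1.61, 1.09 and 0.418 CPM in ND. RD was lowest there, and no RD library of Npsr1 overlapped any ND library. In n_ZFP_n_Rpl IPs RD split into 5.52 and 10.2 CPM on the one hand and 0.244 and 0.990 CPM on the other, while ND held 4.80, 6.07, 2.96 and 0.901 CPM. In n_ZFP_a_Rpl IPs RD held 10.1, 7.53 and 12.9 CPM and ND 3.96, 7.53, 5.67 and 3.62 CPM, with the RZ 1 library at 0.490 and the NZ 4 library at 0.748 CPM.

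Pla2g4e, the calcium-dependent N-acyltransferase of the cytosolic phospholipase A2 family, was split in the same way. In hSyn IPs it had 3.92, 23.4 and 3.29 CPM in RD and 21.4, 22.4, 23.1 and 23.1 CPM in RZ, against 14.6, 16.7, 2.29 and 1.47 CPM in NZ and 16.9, 14.6, 15.9, 29.4 and 2.37 CPM in ND. In MG IPs it had 2.74, 16.5, 15.9 and 19.6 CPM in RD and 30.6, 17.8, 17.99 and 2.63 CPM in RZ, against 12.4, 13.3, 1.93 and 2.38 CPM in NZ and 2.29, 2.49, 11.9 and 2.24 CPM in ND. Libraries of Pla2g4e thus lay either at 1.47 to 3.92 CPM or at 11.9 CPM and above in these 2 IPs, with both kinds in all but the RZ group of hSyn. In n_ZFP_n_Rpl IPs the split followed the groups: 29.2, 34.6, 54.7 and 52.5 CPM in RD and 5.75, 9.50, 7.49 and 8.97 CPM in RZ, against 44.3, 27.4, 26.1 and 23.8 CPM in NZ and 8.81, 7.24, 4.54 and 4.11 CPM in ND. RD and NZ were high, and RZ and ND low, with no overlap. The spread of Npsr1 within groups, as the SD of log2 levels, lay at the 98.9th to 99.98th percentile of all genes across the 7 sets of libraries, and that of Pla2g4e at the 96.5th to 99.9th, against the 41.9th to 92.1st for Abcg2.

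Klk6, a secreted protease made mainly by oligodendrocytes, was not higher in R6/2. In hSyn IPs it had 5.84, 2.65 and 4.06 CPM in RD and 5.05, 4.53, 14.2 and 2.78 CPM in RZ, against 33.6, 6.10, 11.1 and 11.4 CPM in NZ and 26.4, 3.36, 11.1, 17.4 and 29.2 CPM in ND. RD and ND overlapped there through the single ND library of Klk6 at 3.36 CPM. In n_ZFP_n_Rpl IPs Klk6 had 4.71, 2.90, 3.70 and 4.40 CPM in RD and 2.74, 3.71, 3.14 and 1.92 CPM in RZ, against 14.2, 9.33, 10.1 and 15.8 CPM in NZ and 2.49, 4.05, 2.80 and 7.40 CPM in ND. NZ alone was high. Summed oligodendrocyte markers in the same IPs were 1510 to 2604 CPM in RD and 1297 to 1883 CPM in RZ, against 1212 to 2189 CPM in NZ and 1311 to 1849 CPM in ND.

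With ZFP in both genotypes, RZ against NZ compares libraries that did not choose the genes, and it was tested. Sfmbt2, Abcg2 and Chdh were called higher in RZ in all 4 IPs, Emilin2 in 3 and AW551984 and Pcdh20 in 2. Slc5a5 and Npsr1 rose in hSyn, and Pla2g4e and Klk6 fell in n_ZFP_n_Rpl. In MG 5 of the 10 genes were higher and 0 lower, where 12.6% of all genes tested were called higher and 13.9% lower by edgeR's quasi-likelihood test with Benjamini-Hochberg adjustment over all genes. In n_ZFP_a_Rpl 4 were higher and 0 lower, against 8.99% and 11.7% of all genes. In hSyn 8 were higher and 0 lower, against 24.6% and 24.9%, and in n_ZFP_n_Rpl 4 were higher and 2 lower, against 10.5% and 10.7%. The median log2 difference of the 10 genes was 0.89 in MG, 0.49 in n_ZFP_a_Rpl, 1.88 in hSyn and 0.61 in n_ZFP_n_Rpl, with that of all genes at 0.00 in each. The RD and ND libraries enter this fit through the filter on low counts, the TMM factors and the shared estimate of spread.

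The log2 difference of Abcg2 was 2.53 ± 0.16 in hSyn (SE; adjusted p = 1.7e-09), 1.40 ± 0.11 in MG (1.3e-06), 0.91 ± 0.16 in n_ZFP_a_Rpl (0.0012) and 0.67 ± 0.21 in n_ZFP_n_Rpl (0.034), by edgeR's quasi-likelihood test. Sfmbt2 differed by 1.53 ± 0.11 in hSyn (1.2e-08) and 1.37 ± 0.11 in n_ZFP_n_Rpl (2.3e-05), and by 0.92 ± 0.16 in MG (0.00051) and 0.51 ± 0.15 in n_ZFP_a_Rpl (0.024). Chdh differed by 1.98 ± 0.22 in hSyn (1.2e-06), 1.15 ± 0.20 in n_ZFP_n_Rpl (0.001), 1.11 ± 0.17 in n_ZFP_a_Rpl (0.00038) and 0.87 ± 0.31 in MG (0.0496). The MG call of Chdh was lost with no filter on low counts (adjusted p = 0.068), with the replicate number as a block (0.152) and with only the groups compared (0.0696). It was also lost without any 1 of 9 libraries (ND 1, ND 3, NZ 2, NZ 4, NZ 5, RD 3, RD 4, RZ 2 and RZ 3; adjusted p of 0.0545 to 0.181). That of Sfmbt2 in n_ZFP_a_Rpl was lost without NZ 1, NZ 2, RZ 1 or RZ 2 (0.0523 to 0.0614), and that of Abcg2 in n_ZFP_n_Rpl without NZ 1, NZ 3, NZ 4, RZ 2, RZ 3 or RZ 4 (0.0636 to 0.0953).

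Emilin2 was higher in RZ by a log2 of 1.00 ± 0.15 in n_ZFP_a_Rpl (adjusted p = 0.00037), 1.18 ± 0.29 in hSyn (0.0029) and 1.17 ± 0.23 in n_ZFP_n_Rpl (0.0022), and by 0.80 ± 0.40 in MG (0.15), all by edgeR's quasi-likelihood test. AW551984 rose by 1.58 ± 0.28 in MG (0.00083) and 2.53 ± 0.32 in hSyn (1.5e-05), and Pcdh20 by 1.04 ± 0.18 in MG (0.00072) and 1.90 ± 0.18 in hSyn (8.7e-07). In n_ZFP_a_Rpl and n_ZFP_n_Rpl the differences of AW551984 were 0.52 and 0.44 (0.17 and 0.43) and those of Pcdh20 0.47 and 0.54 (0.25 and 0.053). The Pcdh20 value in n_ZFP_n_Rpl passed without ND 1, ND 4, NZ 2 or RD 4 (0.0186 to 0.0469). In hSyn Slc5a5 rose by 1.85 ± 0.36 (0.00071) and Npsr1 by 1.96 ± 0.71 (0.033). The call of Npsr1 was lost with only the groups compared (0.0879) and without NZ 2, NZ 3, RZ 1 or RZ 2 (0.0517 to 0.0883), and without MG NZ 2 Slc5a5 passed in MG as well, with a log2 of 1.29 (0.0103) against 0.65 with it (0.27). In n_ZFP_n_Rpl Pla2g4e fell by 1.94 ± 0.28 on the log2 scale (0.00041) and Klk6 by 2.11 ± 0.31 (0.00044). Klk6 also passed as lower in n_ZFP_a_Rpl without NZ 1 (−0.86, 0.0222) and in hSyn without RZ 3 (−1.92, 0.0498). Within groups, Slc5a5, Npsr1 and Pla2g4e deviated most like genes on their own chromosomes. The part of this in their calls, here and in every other comparison, was not tested.

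**Figure D2:**
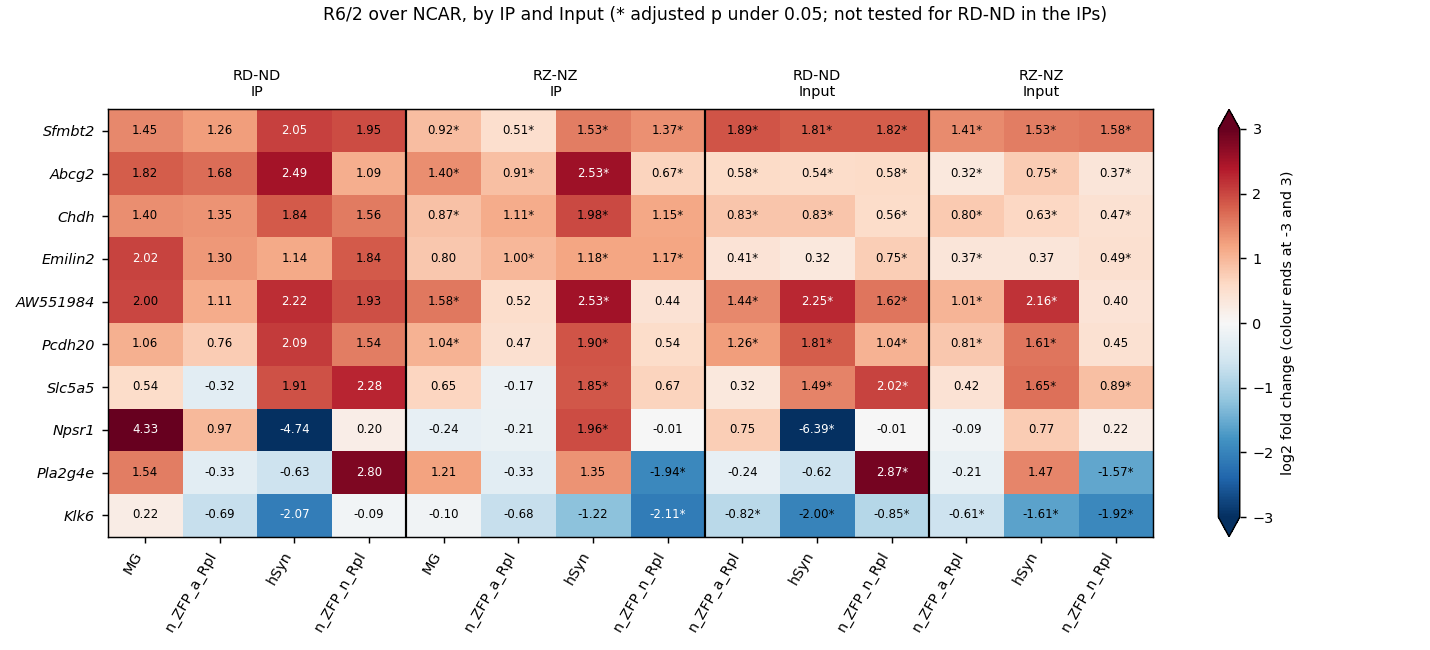
Fitted log2 fold changes of the 10 genes (rows) between genotypes, in columns for RD over ND and RZ over NZ in the IPs and then in the Inputs of each set. Red is higher in R6/2 and blue lower, and a star marks an adjusted p under 0.05 by edgeR's quasi-likelihood test. The columns of RD over ND in the IPs chose the genes and carry no test. Sfmbt2, Abcg2, Chdh, Emilin2, AW551984 and Pcdh20 are red in every column, and Klk6 is blue in all but RD over ND in MG IPs.

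Markers of several cell types moved with genotype in these IPs, and their part in the results was not tested. Of all genes tested in MG, n_ZFP_a_Rpl, hSyn and n_ZFP_n_Rpl, 13.9%, 11.7%, 24.9% and 10.7% were called lower in RZ than in NZ. The shares called higher were 12.6%, 8.99%, 24.6% and 10.5%. Of 9 striatal projection neuron markers tested, 8 were called lower in RZ than in NZ in MG, 6 in n_ZFP_a_Rpl, 9 in hSyn and 4 in n_ZFP_n_Rpl, and 0 higher. Their summed level was 3282 to 3836 CPM in RZ and 9786 to 12069 CPM in NZ in hSyn, and 1571 to 2012 CPM in RZ and 3262 to 5415 CPM in NZ in MG. In n_ZFP_a_Rpl it was 4127 to 4682 CPM in RZ and 5808 to 7573 CPM in NZ, and in n_ZFP_n_Rpl 3075 to 5050 CPM in RZ and 4457 to 6182 CPM in NZ. Of 10 astrocyte markers 2 were called lower in MG, 8 in n_ZFP_a_Rpl, 6 in hSyn and 6 in n_ZFP_n_Rpl, and 0 higher. Their summed level was 11207 to 18003 CPM in RZ and 16652 to 32002 CPM in NZ in MG, and 10951 to 11870 CPM in RZ and 16272 to 21626 CPM in NZ in n_ZFP_a_Rpl. In hSyn it was 2946 to 3551 CPM in RZ and 4828 to 8340 CPM in NZ, and in n_ZFP_n_Rpl 1838 to 2753 CPM in RZ and 3799 to 4891 CPM in NZ. Of 10 oligodendrocyte markers, 6 were called higher in hSyn, 3 were called lower in n_ZFP_a_Rpl and 0 were called in MG and n_ZFP_n_Rpl. Emilin2 and Chdh rose in hSyn, n_ZFP_a_Rpl and n_ZFP_n_Rpl, and Chdh in MG. The summed oligodendrocyte level in hSyn was 1354 to 1729 CPM in RZ and 1018 to 1612 CPM in NZ. In n_ZFP_a_Rpl it was 2279 to 2677 CPM in RZ and 2173 to 3109 CPM in NZ. In n_ZFP_n_Rpl it was 1297 to 1883 CPM in RZ and 1212 to 2189 CPM in NZ, and in MG 1761 to 3861 and 1891 to 4639 CPM. Endothelial and mural markers, which bear on Abcg2, had 1 of 10 called higher in MG, 1 lower in n_ZFP_a_Rpl, 0 in hSyn and 2 lower in n_ZFP_n_Rpl.

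The Inputs show the same genes in RNA that was not pulled down. They are libraries that the choice of genes did not use, though not separate samples, since IP and Input libraries of a number deviated together. Differences that use the RD or ND libraries of the Inputs are thus not independent of the choice of the genes. Nothing is read from the counts of RD against ND given here. Sfmbt2, Abcg2, Chdh, AW551984 and Pcdh20 rose in RD in all 3 Inputs, Emilin2 and Slc5a5 in 2, and Pla2g4e in n_ZFP_n_Rpl. Klk6 fell in all 3 and Npsr1 fell in hSyn. In n_ZFP_a_Rpl 6 of the 10 genes were higher and 1 lower, where 24.4% of all genes were called higher and 24.7% lower by edgeR's quasi-likelihood test. In hSyn 6 were higher and 2 lower, against 22.5% and 21.6%, and in n_ZFP_n_Rpl 8 were higher and 1 lower, against 26.1% and 23.7%.

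In n_ZFP_n_Rpl Inputs Sfmbt2 had 23.9, 20.7, 27.6 and 23.8 CPM in RD and 26.6, 22.4, 24.2 and 23.7 CPM in RZ, against 6.60, 9.73, 7.67 and 8.42 CPM in NZ and 6.67, 7.03, 6.55 and 6.94 CPM in ND. The R6/2 and NCAR libraries did not overlap, and the log2 difference of RD over ND for Sfmbt2 was 1.82 ± 0.11 there (adjusted p = 1.8e-09), 1.89 ± 0.16 in n_ZFP_a_Rpl (1.2e-07) and 1.81 ± 0.16 in hSyn (2.1e-07) by edgeR's quasi-likelihood test. Abcg2 rose by 0.58 in n_ZFP_a_Rpl (2.3e-06), 0.54 in hSyn (0.0041) and 0.58 in n_ZFP_n_Rpl (7.6e-05). Its mean in hSyn Inputs was 18.7 ± 1.47 CPM in RD (SD, n = 3), against 12.9 ± 2.62 CPM in ND (n = 5). Chdh rose by 0.83 in n_ZFP_a_Rpl and 0.83 in hSyn (0.00018 each) and 0.56 in n_ZFP_n_Rpl (0.0047).

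AW551984 rose by a log2 of 1.44 in n_ZFP_a_Rpl (adjusted p = 0.00031), 2.25 in hSyn (0.00011) and 1.62 in n_ZFP_n_Rpl (0.00039), and Pcdh20 by 1.26 (0.00047), 1.81 (3.4e-06) and 1.04 (0.0014) in the same order, by edgeR's quasi-likelihood test. Emilin2 rose by 0.41 in n_ZFP_a_Rpl (0.0068), a call lost without RD 3 (0.0899), and by 0.75 in n_ZFP_n_Rpl (0.00055). Slc5a5 rose in both neuron Inputs, by 1.49 ± 0.40 in hSyn (0.0081) and 2.02 ± 0.35 in n_ZFP_n_Rpl (0.00024). The hSyn call of Slc5a5 was lost without RD 2 (0.0931), the library at 13.7 CPM where the other two RD libraries had 3.50 and 7.17 CPM, against 1.19 to 3.46 CPM in ND. Klk6 fell by 0.82 (0.00023), 2.00 (0.015) and 0.85 (0.0062) on the log2 scale in n_ZFP_a_Rpl, hSyn and n_ZFP_n_Rpl, and the hSyn call was lost without RD 2 or RD 3 (0.0519 to 0.0583). Summed oligodendrocyte markers were lower in R6/2 Inputs too, for example 4313 to 5720 CPM in RD and 6681 to 7985 CPM in ND of n_ZFP_n_Rpl, and their part in these values was not tested.

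The Npsr1 and Pla2g4e differences in the Inputs followed those of the IPs of the same set. Npsr1 in hSyn Inputs had 0.0725, 0.0255 and 0.0894 CPM in RD (3, 1 and 4 reads), against 6.001, 6.72, 7.68, 7.25 and 0.488 CPM in ND. RD was below ND in every library, with a fitted log2 difference of −6.39 ± 1.76 (adjusted p = 0.011, edgeR's quasi-likelihood test), a size that depends on the few reads in RD. RZ in the same Inputs held 10.5, 10.6, 7.51 and 8.45 CPM, and NZ 0.0255, 0.581, 7.14 and 14.1 CPM. Pla2g4e in n_ZFP_n_Rpl Inputs had 33.9, 39.4, 58.6 and 63.6 CPM in RD and 7.76, 11.6, 9.65 and 12.3 CPM in RZ, against 44.8, 24.4, 27.9 and 25.3 CPM in NZ and 9.19, 6.26, 4.97 and 6.39 CPM in ND. RD and NZ were again high and RZ and ND low, with a log2 difference of 2.87 ± 0.27 in RD over ND (1.2e-06) and of −1.57 in RZ over NZ (0.00054).

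**Figure D3:**
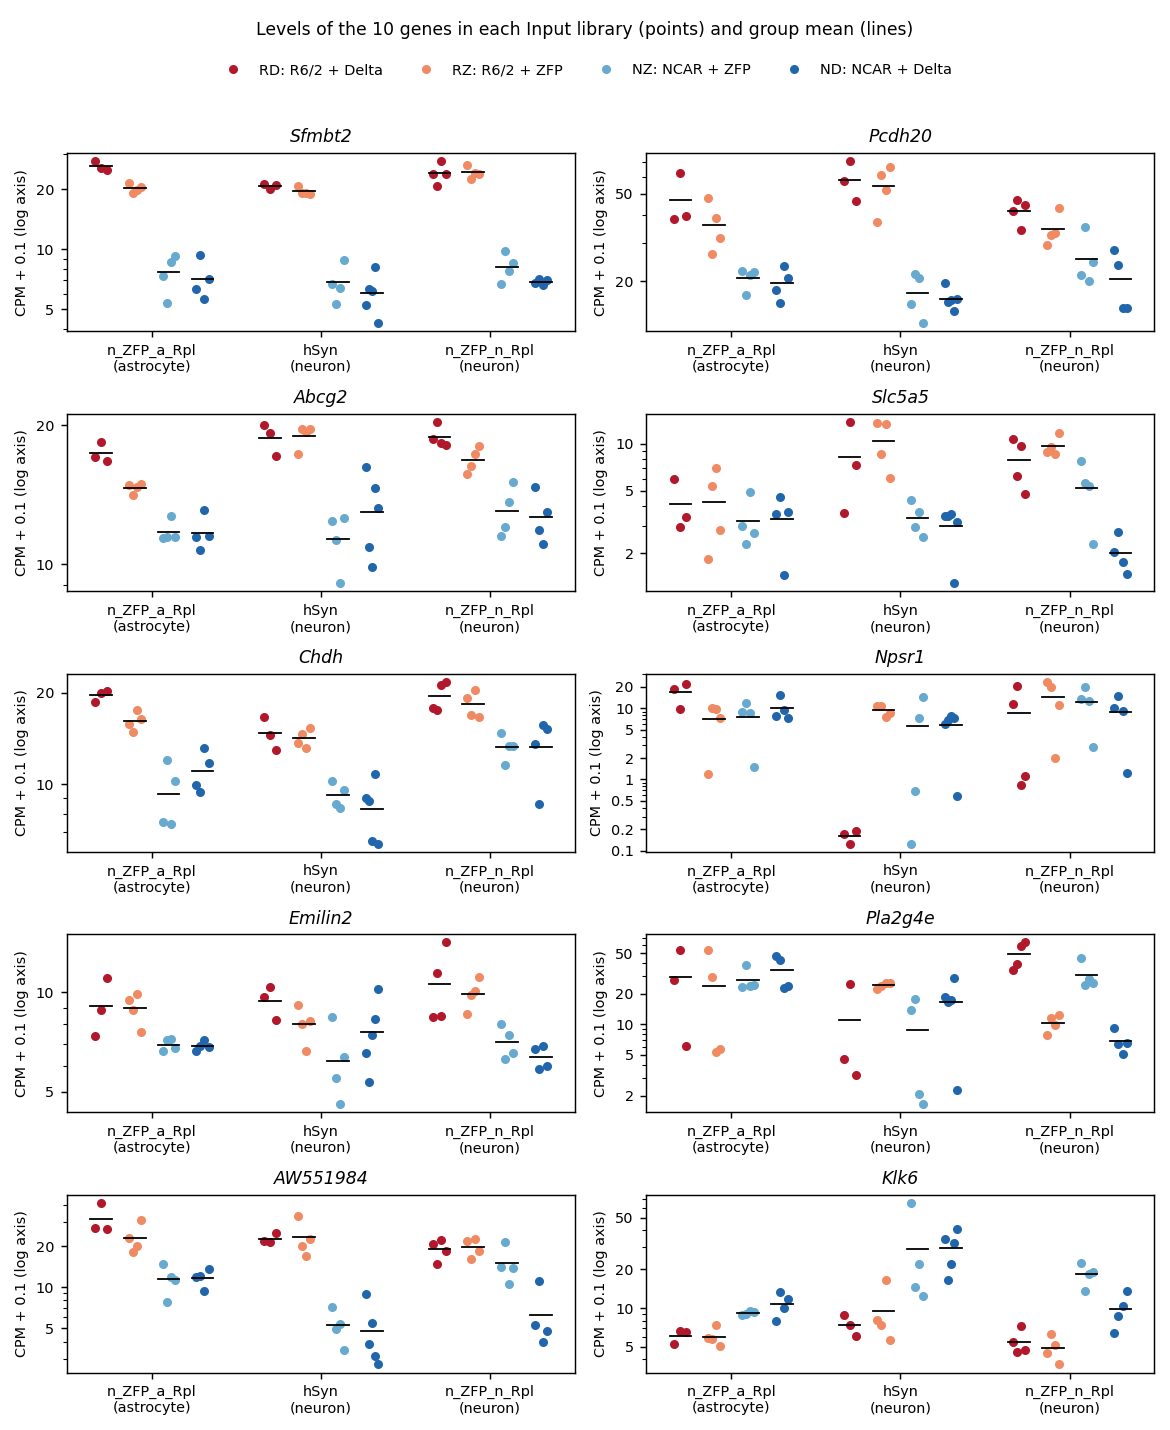
Level of each of the 10 genes in each Input library, as CPM + 0.1 on a log axis. Points are libraries and lines are group means, with RD, RZ, NZ and ND from left to right in each of the 3 sets. Sfmbt2 separates the genotypes in all 3 sets, Npsr1 is near 0 in the 3 RD libraries of hSyn, and Klk6 is lower in RD than in ND.

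With ZFP in both genotypes, 6 of the 10 genes were higher and 1 lower in RZ than in NZ in the n_ZFP_a_Rpl Inputs, where 17.5% of all genes were called higher and 19.3% lower by edgeR's quasi-likelihood test. In hSyn 6 were higher and 1 lower (21.4% and 19.8% of all genes), and in n_ZFP_n_Rpl 5 were higher and 2 lower (16.4% and 15.1%). Sfmbt2 rose by a log2 of 1.41, 1.53 and 1.58 in n_ZFP_a_Rpl, hSyn and n_ZFP_n_Rpl (adjusted p = 3.7e-06, 1.1e-06 and 1.7e-07). Abcg2 rose by 0.32, 0.75 and 0.37 in the same order (0.0011, 0.00027 and 0.0069) and Chdh by 0.80, 0.63 and 0.47 (0.00029, 0.0018 and 0.024). Klk6 fell by 0.61, 1.61 and 1.92 on the log2 scale (0.0024, 0.028 and 3.4e-05). AW551984 rose by 1.01 in n_ZFP_a_Rpl (0.0042) and 2.16 in hSyn (0.00019), and its difference in n_ZFP_n_Rpl was 0.40 (0.28). Pcdh20 rose by 0.81 in n_ZFP_a_Rpl (0.0095) and 1.61 in hSyn (1.1e-05), and its difference in n_ZFP_n_Rpl was 0.45 (0.13). Emilin2 rose by 0.37 in n_ZFP_a_Rpl (0.012) and 0.49 in n_ZFP_n_Rpl (0.019), the second lost without NZ 2, NZ 4 or RZ 4 (0.0564 to 0.0642). Slc5a5 rose by 1.65 in hSyn (0.0045) and 0.89 in n_ZFP_n_Rpl (0.043), the second lost without ND 1, ND 3, NZ 2, NZ 3, NZ 4 or any RZ library (0.0533 to 0.113). With only the groups compared the hSyn call of Klk6 (0.107) and the n_ZFP_n_Rpl call of Slc5a5 (0.0586) were lost, the first also with the replicate number as a block (0.0708) and the second with no filter on low counts (0.0662). The hSyn call of Klk6 was lost without NZ 1, RZ 1, RZ 2 or RZ 4 (0.0667 to 0.130), and that of Chdh in n_ZFP_n_Rpl without NZ 2, NZ 3, NZ 4, RZ 1 or RZ 3 (0.0529 to 0.0771).

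IP was set against Input over the NZ and RZ libraries. Both are relative levels, so expression in the tagged cells, loading on their ribosomes and carry-over of other RNA cannot be told apart in this difference. Abcg2, Chdh and Emilin2 were lower in IP than in Input in all 3 sets, astrocytes and neurons alike. AW551984 and Pcdh20 were higher in the astrocyte IP of n_ZFP_a_Rpl, where the summed pan-neuronal markers also stood above the Input. The part of neuronal RNA in this was not tested. In n_ZFP_a_Rpl 2 of the 10 genes were higher and 5 lower in IP, where 39.9% and 39.4% of all genes were called higher and lower. In hSyn 0 were higher and 3 lower (36% and 34.1% of all genes), and in n_ZFP_n_Rpl 0 were higher and 5 lower (38.8% and 38.7%). Abcg2 fell by 1.57 ± 0.09 in n_ZFP_a_Rpl (adjusted p = 2.3e-11), 1.47 ± 0.10 in hSyn (1.5e-09) and 0.73 ± 0.10 in n_ZFP_n_Rpl (2.8e-06) on the log2 scale, by edgeR's quasi-likelihood test. Chdh fell by 0.62 (9.5e-05), 1.39 (5.2e-09) and 1.58 (9.6e-11), and Emilin2 by 0.51 (2e-06), 1.10 (5.1e-05) and 0.90 (2.3e-06), in the same order. Sfmbt2 fell by 0.35 in n_ZFP_a_Rpl (0.0088) and 0.69 in n_ZFP_n_Rpl (8e-08), and its difference in hSyn was −0.17 (0.093). Klk6 fell by 0.65 in n_ZFP_a_Rpl (0.00019) and 0.46 in n_ZFP_n_Rpl (0.015). AW551984 rose by 0.69 in n_ZFP_a_Rpl (0.0014) and Pcdh20 by 0.37 (0.046), a call lost with RLE factors (0.0508), with no filter on low counts (0.0522) and without any 1 of 13 of the 16 libraries (all but IP NZ 2, IP RZ 2 and Input RZ 1; 0.0528 to 0.107).

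IP and Input libraries of the same number deviated together in n_ZFP_a_Rpl (r of 0.446 to 0.729, each of 15 IP libraries best with its own number) and in n_ZFP_n_Rpl (0.558 to 0.842, 16 of 16). In hSyn 7 of the 8 NZ and RZ IP libraries had an Input of their number, and each was most like it (0.557 to 0.819). With the number as a block, 2 of the 10 genes were higher and 7 lower in n_ZFP_a_Rpl, where 42.3% and 41.4% of all genes were called by edgeR's quasi-likelihood test. In hSyn 3 were higher and 5 lower (39.6% and 37.9% of all genes), and in n_ZFP_n_Rpl 2 were higher and 6 lower (42.3% and 41.8%). The calls added in n_ZFP_a_Rpl were Npsr1 (log2 of −0.48, adjusted p = 1.1e-06) and Pla2g4e (−0.25, 1.1e-05). Those added in hSyn were Pla2g4e (0.17, 0.0049), Slc5a5 (0.26, 0.0034), Pcdh20 (0.14, 0.0048), Npsr1 (−1.07, 0.033) and Klk6 (−0.61, 3.1e-08). Those added in n_ZFP_n_Rpl were Npsr1 (−0.71, 0.010), Slc5a5 (0.40, 1.5e-05) and Pcdh20 (0.18, 0.0021). The library that was low in the IP was low in the Input as well. Npsr1 stood at 0.490 CPM in the IP and 1.09 CPM in the Input of n_ZFP_a_Rpl RZ 1, and at 0.748 and 1.40 CPM in NZ 4. In n_ZFP_n_Rpl RD 3 it stood at 0.244 and 0.747 CPM, and in RD 4 at 0.990 and 1.03 CPM. Pla2g4e stood at 4.24 CPM in the IP and 5.996 CPM in the Input of n_ZFP_a_Rpl RD 3, where RD 1 and RD 2 had 18.8 and 36.7 CPM in the IP and 27.3 and 53.1 CPM in the Input.

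**Figure D4:**
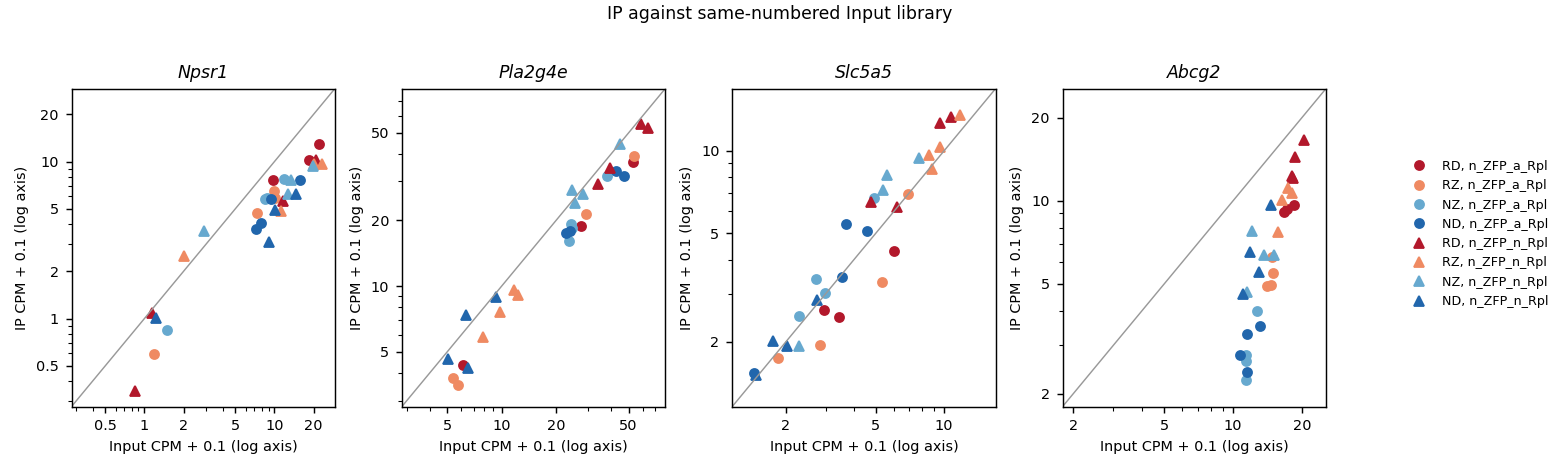
IP level (vertical) against the level in the same-numbered Input library (horizontal), as CPM + 0.1 on log axes, for Npsr1, Pla2g4e, Slc5a5 and Abcg2 in n_ZFP_a_Rpl (circles) and n_ZFP_n_Rpl (triangles). Colours are the 4 conditions and the grey line marks equal levels. Libraries low for Npsr1 or Pla2g4e are low in both fractions, and all Abcg2 points lie below the line.

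The response to the ZFP in R6/2 mice was read from RZ against RD. It shares the RD libraries with the contrast that chose the genes, so a lower value in RZ is not independent of that choice. In n_ZFP_a_Rpl AW551984, Sfmbt2 and Abcg2 fell, and in n_ZFP_n_Rpl Pla2g4e, Sfmbt2 and Pcdh20 fell. None of the 10 genes passed in MG or hSyn. In n_ZFP_a_Rpl 0 were higher and 3 lower, where 19.1% of all genes were called higher and 14.7% lower, and in n_ZFP_n_Rpl 0 were higher and 3 lower (9.47% and 7.95%). In MG, with 0.0782% of all genes called, 0 of the 10 had an unadjusted p under 0.05 and DESeq2 called 0. In hSyn, with 0.0391% called, 1 had an unadjusted p under 0.05 and DESeq2 called 1, in both cases Npsr1.

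Abcg2 fell by 0.81 ± 0.17 on the log2 scale in n_ZFP_a_Rpl (adjusted p = 0.0014), Sfmbt2 by 0.56 ± 0.15 (0.01) and AW551984 by 0.87 ± 0.26 (0.022), by edgeR's quasi-likelihood test. AW551984 there had 27.6, 22.6, 26.5 and 33.0 CPM in RZ, against 39.4, 68.3 and 42.9 CPM in RD. The call of AW551984 was lost without RD 2 or RZ 2 (0.0559 to 0.128). In n_ZFP_n_Rpl Pla2g4e fell by 2.43 ± 0.29 (7.9e-05), Sfmbt2 by 0.33 ± 0.11 (0.046) and Pcdh20 by 0.62 ± 0.19 (0.033). The 5 genes whose levels deviated most like those of Pla2g4e within groups lay on its own chromosome, Ehd4 among them at 0.077 Mb (r of 0.88), and in MG and hSyn libraries of 1 group stood at either of 2 levels. The 5 genes most like Npsr1 and Slc5a5 likewise lay on the chromosome of the gene itself. The part of this in the calls of Pla2g4e, Npsr1 and Slc5a5, here and in the other comparisons, was not tested. The Pcdh20 call was lost without RD 1, RD 2, RD 4, RZ 1, RZ 2 or RZ 3 (0.0512 to 0.0972) and the Sfmbt2 call with no filter on low counts (0.0551) and without any 1 of 10 libraries (NZ 1, NZ 3, NZ 4, RD 1, RD 3, RD 4 and each RZ library; 0.0503 to 0.137). Without ND 1, Abcg2 passed in n_ZFP_n_Rpl too, with a log2 of −0.49 (0.0479). Sfmbt2 and Abcg2 in RZ of n_ZFP_a_Rpl still stood above NZ, as given above. In hSyn Npsr1 was 6.71 ± 1.15 higher in RZ (adjusted p = 0.083), with every RZ library above every RD library, and DESeq2 gave it an adjusted p of 1.4e-07. By edgeR it passed without NZ 1 or NZ 5 (0.00981 to 0.0209).

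In the Inputs the ZFP response in R6/2 was called for 1 gene in n_ZFP_a_Rpl, 0 in hSyn and 1 in n_ZFP_n_Rpl, where 16.1%, 0% and 3.32% of all genes passed. Abcg2 fell by 0.25 ± 0.07 on the log2 scale in n_ZFP_a_Rpl (adjusted p = 0.019), lost without RD 2 or RZ 2 (0.0523 to 0.119). It had 14.8, 14.0, 14.6 and 14.8 CPM in RZ, against 17.0, 18.3 and 16.6 CPM in RD. Pla2g4e fell by 2.24 ± 0.26 in n_ZFP_n_Rpl (0.00047), all by edgeR's quasi-likelihood test. In hSyn Npsr1 differed by 7.11 ± 1.77 (adjusted p = 1), the 1 gene of the 10 with an unadjusted p under 0.05 and the 1 that DESeq2 called (0.00028).

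In NCAR mice, NZ against ND also gave calls, all upward. The ND libraries of the IPs are among those that chose the genes, and low ND values favoured that choice, so a higher value in NZ is not independent of it. In n_ZFP_n_Rpl IPs Pla2g4e, Slc5a5, AW551984 and Klk6 rose, and in MG IPs Npsr1 rose. The share of all genes called higher was 2.86% in n_ZFP_n_Rpl, with 4 of the 10, and 3.68% in MG, with 1 of the 10, and for the same reason nothing is read from these counts. In n_ZFP_a_Rpl 0 passed (2.07% of all genes, with 0 at an unadjusted p under 0.05 and 0 by DESeq2) and in hSyn 0 passed (0.0261%, with 1 at an unadjusted p under 0.05 and 0 by DESeq2). Pla2g4e rose by a log2 of 2.30 ± 0.29 (adjusted p = 0.00044), Slc5a5 by 1.73 ± 0.42 (0.023), Klk6 by 1.56 ± 0.31 (0.01) and AW551984 by 1.41 ± 0.39 (0.041) in n_ZFP_n_Rpl, and Npsr1 by 3.87 ± 0.76 in MG (0.023), by edgeR's quasi-likelihood test. With only the groups compared, the n_ZFP_n_Rpl calls of Klk6 (0.0602), Slc5a5 (0.0879) and AW551984 (0.102) were lost, and that of AW551984 also with no filter on low counts (0.0741). The Slc5a5 call was lost without ND 3, ND 4, NZ 1, NZ 2 or NZ 3 (0.0540 to 0.0653) and the AW551984 call without any 1 of 9 libraries (ND 1, ND 3, ND 4, NZ 2, NZ 3, NZ 4, RD 1, RZ 2 and RZ 4; 0.0519 to 0.109). The Npsr1 call was lost with the replicate number as a block (0.192) and without ND 1, ND 2, NZ 3 or NZ 5 (0.0610 to 0.0810). Without NZ 2, Slc5a5 passed in MG as lower in NZ, with a log2 of −1.17 (0.0371).

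The same 4 genes rose in the n_ZFP_n_Rpl Inputs, where 0.695% of all genes were called higher, though Input and IP libraries of a number deviated together. Pla2g4e rose by a log2 of 2.19 (adjusted p = 0.0013), Slc5a5 by 1.44 (0.044), AW551984 by 1.27 (0.036) and Klk6 by 0.92 (0.037), by edgeR's quasi-likelihood test. Klk6 in these Inputs had 22.2, 13.6, 18.2 and 18.8 CPM in NZ, against 6.36, 8.57, 10.2 and 13.5 CPM in ND. NZ was higher in every library of Klk6. In n_ZFP_a_Rpl and hSyn Inputs 0 of the 10 passed, where 0.957% and 0.00622% of all genes did, and 0 had an unadjusted p under 0.05 or were called by DESeq2 in either. The Input calls of Slc5a5, AW551984 and Klk6 were lost with no filter on low counts (adjusted p of 0.0506 to 0.0664), with the replicate number as a block (0.0597 to 0.0689) and with only the groups compared (0.130 to 0.170). That of Slc5a5 was also lost without any 1 of 11 of the 16 libraries (all but ND 1, ND 2, NZ 4, RD 1 and RD 4; adjusted p of 0.0515 to 0.135). That of AW551984 was lost without ND 3, ND 4, NZ 1, NZ 2, NZ 4 or RD 4 (0.0506 to 0.111), and that of Klk6 without ND 2, ND 3, NZ 1, NZ 3, NZ 4, RD 1, RD 4 or RZ 3 (0.0506 to 0.0947).

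Whether the ZFP response differed between genotypes was tested as the difference of RZ minus RD and NZ minus ND in the IPs. This difference holds RD minus ND with its sign turned, so the choice of the genes pushes it down, and a lower value is not independent of that choice. It was called for Sfmbt2 and Abcg2 in n_ZFP_a_Rpl and for Pla2g4e, Klk6, Pcdh20 and Sfmbt2 in n_ZFP_n_Rpl, each time lower in R6/2. The share of all genes called lower was 5.07% in n_ZFP_a_Rpl and 4.68% in n_ZFP_n_Rpl, and nothing is read from the counts of 2 and 4 of the 10 beside it. In n_ZFP_a_Rpl the difference was −0.76 ± 0.21 for Sfmbt2 (adjusted p = 0.024) and −0.77 ± 0.23 for Abcg2 (0.036) on the log2 scale. In n_ZFP_n_Rpl it was −4.74 ± 0.41 for Pla2g4e (2.8e-05), −2.01 ± 0.44 for Klk6 (0.0081), −0.998 ± 0.27 for Pcdh20 (0.024) and −0.58 ± 0.16 for Sfmbt2 (0.025), by edgeR's quasi-likelihood test. The Sfmbt2 call in n_ZFP_a_Rpl was lost without RD 1 or RD 2 (0.0533 to 0.0586), that in n_ZFP_n_Rpl without NZ 2, RD 3, RD 4, RZ 1 or RZ 2 (up to 0.0531), and that of Abcg2 with the replicate number as a block (0.0574) and without any 1 of 9 libraries (ND 2, ND 4, NZ 3, RD 1, RD 2, RD 3, RZ 2, RZ 3 and RZ 4; 0.0555 to 0.0697). Emilin2 passed in n_ZFP_a_Rpl without RD 1 (−0.52, 0.0321), and in n_ZFP_n_Rpl AW551984 passed without RZ 3 (−1.78, 0.0450) and Slc5a5 without NZ 4 (−1.93, 0.00658). In MG and hSyn 0 of the 10 and 0% of all genes passed, with 4 and 2 of the 10 at an unadjusted p under 0.05 and 1 called by DESeq2 in each, Npsr1 both times. In MG Npsr1 also passed without RZ 1, with a difference of −4.18 (adjusted p = 0.0172, edgeR's quasi-likelihood test).

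**Figure D5:**
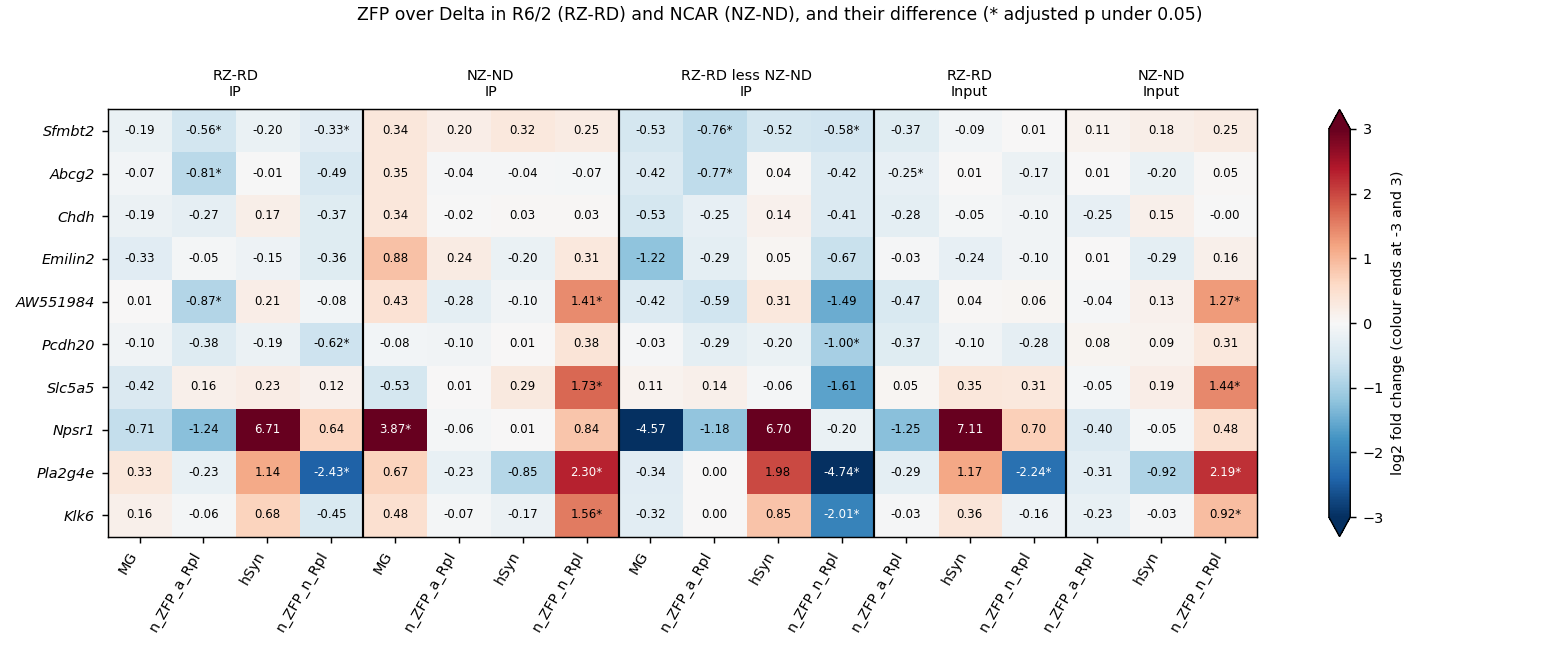
Fitted log2 fold changes of the 10 genes (rows) with ZFP, in columns for RZ over RD, NZ over ND and the difference between them in the IPs of each set, and for RZ over RD and NZ over ND in the Inputs. Red is higher with ZFP and blue lower, and a star marks an adjusted p under 0.05 by edgeR's quasi-likelihood test. Stars lie mainly in the n_ZFP_a_Rpl and n_ZFP_n_Rpl columns.

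Relatives of the 10 genes were called in both directions. Of all genes tested in MG, n_ZFP_a_Rpl, hSyn and n_ZFP_n_Rpl, 12.6%, 8.99%, 24.6% and 10.5% were called higher in RZ than in NZ. The shares called lower were 13.9%, 11.7%, 24.9% and 10.7%. Of 69 relatives on family lists, 6 were higher and 7 lower of 37 tested in RZ against NZ in MG IPs, 6 and 4 of 36 in n_ZFP_a_Rpl, 12 and 8 of 39 in hSyn and 7 and 2 of 36 in n_ZFP_n_Rpl, with medians of 0.02, 0.02, 0.02 and 0.07 on the log2 scale. Pla2g4a, the arachidonate-releasing cytosolic phospholipase A2, rose in all 4 IPs, by a log2 of 1.06 in MG (adjusted p = 0.03), 1.59 in n_ZFP_a_Rpl (1.6e-05), 1.68 in hSyn (5.9e-07) and 1.33 in n_ZFP_n_Rpl (0.0025), by edgeR's quasi-likelihood test. L3mbtl3, an MBT-repeat protein like Sfmbt2, rose by 0.76, 0.48, 0.86 and 0.29 and Pcdh19, a protocadherin like Pcdh20, by 0.98, 0.84, 1.73 and 0.58 in the same order. Slc5a7, the choline transporter of cholinergic neurons, fell by 0.92 in MG, 1.85 in hSyn and 0.76 in n_ZFP_n_Rpl, and Chat, which makes acetylcholine from choline, by 0.99, 1.84 and 0.82 in the same sets. Abcg3 fell by 2.67 in MG and 2.26 in n_ZFP_a_Rpl. No relative on the EMILIN, neuropeptide S or kallikrein lists passed in any IP.

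The nearest 2 counted genes on each side of each of the 10 were looked at in the same test, beside the same shares of all genes. Of 19 such neighbours tested in MG 4 were higher and 1 lower, of 18 in n_ZFP_a_Rpl 2 and 1, of 19 in hSyn 5 and 2, and of 19 in n_ZFP_n_Rpl 1 and 2. Smchd1, a chromatin protein of the inactive X chromosome that lies 32.9 kb from Emilin2, rose by a log2 of 0.57 in MG, 0.16 in n_ZFP_a_Rpl (adjusted p = 0.013), 0.42 in hSyn (2e-06) and 0.16 in n_ZFP_n_Rpl (0.041), by edgeR's quasi-likelihood test. Herc3, 139 kb from Abcg2, rose by 0.37 in MG, 0.13 in n_ZFP_a_Rpl and 0.36 in hSyn, and its difference in n_ZFP_n_Rpl was −0.04 (0.87).

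Over the 16 group means of the IPs (4 conditions in 4 sets, centred within each set), the most alike gene was Fkbp9 for Sfmbt2 (r of 0.99), Zfp52 for Abcg2 (0.99), Bpnt1 for Chdh (0.996), Slc45a3 for Emilin2 (0.98), Cd200 for AW551984 (0.98), Gtpbp10 for Slc5a5 (0.95), Ripk4 for Npsr1 (0.89), Ccndbp1 for Pla2g4e (0.93) and Ganc for Klk6 (0.97). These are the highest of many correlations over 16 points that share the genotype difference, and are given as a description.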

How the data were processed

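Per the submitters' processing notes, the authors used STAR for alignment, mm10 as the build and HTSeq for the counts per gene. Their versions, options and strandedness were not given in the sources used here. The deposited values are raw counts per gene symbol for 110 libraries from TruSeq kits, per the labels' protocols. Of 24060 rows, 4 whose symbol is repeated were dropped, and 0 per-sample columns went unused. The 10 genes and all gene lists were chosen with earlier results of these data known.

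For each set and fraction, filterByExpr removed low genes (min.count 10, min.total.count 15), TMM scaled the libraries, and all 4 conditions were fitted with edgeR 4.0.16's robust quasi-likelihood test in R 4.3.3 (limma 3.58.1). p-values were adjusted by Benjamini-Hochberg over all genes, with a threshold of 0.05. IP against Input was fitted over NZ and RZ. This made 31 comparisons. The SE is the fold change divided by the root of its F statistic. The fits were tested on simulated data. Groups held 3 to 5 libraries, which limits precision, as does depth for genes with few reads. All 10 genes are named. Of each family at most 2 genes per direction and comparison were named, those of largest change. Neighbours were named where called in the direction of the gene in at least 2 IPs. The most alike gene had the highest Pearson r of log2(CPM + 0.5) among genes of mean CPM of at least 1, passing over Gm, Rik and -ps symbols. The one most like Pcdh20 is not reported here. Alternatives were DESeq2 1.42.0, its size factors (RLE), no filter on low counts, the replicate number as a block, only the groups compared, and leaving out each library. Within a set and fraction, libraries of 1 number in different conditions did not all deviate together: from 5 of 21 pairs in MG IPs to 13 of 24 in n_ZFP_n_Rpl IPs had r over 0.1. IP and Input libraries of 1 number did, in n_ZFP_a_Rpl, n_ZFP_n_Rpl and the NZ and RZ libraries of hSyn.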

Additional observations from a re-analysis of the deposited data

Results flagged for a closer look

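In 15 of 240 groups of 4 or 5 libraries, 1 library stood far from the others by Dixon's test at the 95% level, which chance gives in about 1 in 20 groups. In MG IPs these were Emilin2 in ND 4 (3.20 CPM, others 1.79 to 2.00), Pla2g4e in ND 3 (11.9, others 2.24 to 2.49), Slc5a5 in NZ 2 (3.79, others 0.975 to 1.37) and in RZ 4 (4.32, others 2.10 to 2.42), and Sfmbt2 in NZ 2 (10.4, others 6.81 to 7.01). In n_ZFP_a_Rpl IPs they were AW551984 in NZ 2 (12.1 CPM, others 20.9 to 22.3) and Sfmbt2 in ND 1 (4.76, others 6.70 to 6.81). In hSyn IPs they were Emilin2 in ND 4 (3.53 CPM, others 1.58 to 2.07) and Slc5a5 in ND 3 (1.40, others 2.79 to 3.31).

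In the Inputs they were Pla2g4e in n_ZFP_a_Rpl NZ 2 (37.8 CPM, others 23.3 to 24.2) and Abcg2 in n_ZFP_a_Rpl NZ 3 (12.6, others 11.3). In hSyn Inputs they were Npsr1 in ND 5 (0.488 CPM, others 6.001 to 7.68), Slc5a5 in ND 4 (1.19, others 3.05 to 3.46), Sfmbt2 in RZ 1 (20.6, others 19.0 to 19.1) and Abcg2 in RZ 1 (17.3, others 19.3 to 19.6).

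The response to ZFP differed between R6/2 and NCAR, by the test of the difference itself, for Sfmbt2 (−0.76) and Abcg2 (−0.77) in n_ZFP_a_Rpl IPs, and for Pla2g4e (−4.74), Klk6 (−2.01), Pcdh20 (−0.998) and Sfmbt2 (−0.58) in n_ZFP_n_Rpl IPs, all as log2 values of RZ minus RD less NZ minus ND. The genes were picked on RD against ND in these IPs, which enters this difference with its sign turned, so the lower values are not independent of the choice. As given above, the calls of Abcg2 and of Sfmbt2 in both sets were lost without single libraries. The Abcg2 call was also lost with the replicate number as a block. The part of the own-chromosome pattern in the Pla2g4e value was not tested.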

How the results depend on the processing

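Of the counts of called genes recomputed under the alternatives that keep all libraries, 134 stayed within 1.5 times and 15 did not, and no value changed its direction where it was called. Among the single genes, 1430 values kept their side of the threshold, 24 came to pass it and 26 ceased to. With the replicate number as a block, the count of NZ against ND in MG IPs was 0 (1 without it), that of the difference in ZFP response in n_ZFP_a_Rpl IPs 1 (2 without), that of NZ against ND in n_ZFP_n_Rpl Inputs 1 (4 without), and those of IP against Input 8 in hSyn (3 without) and 8 in n_ZFP_n_Rpl (5 without). Outside IP against Input, the numbers are not known to pair the samples, and libraries of 1 number did not all deviate together. With DESeq2 the count was 1 in place of 0 for the difference in ZFP response in MG and hSyn IPs and for RZ against RD in hSyn IPs and Inputs. With only the groups compared it was 1 in place of 0 for RZ against RD in hSyn IPs and Inputs, 1 in place of 4 for NZ against ND in n_ZFP_n_Rpl IPs and Inputs, and 3 in place of 1 for RZ against RD in n_ZFP_a_Rpl Inputs. With no filter on low counts it was 1 in place of 4 for NZ against ND in n_ZFP_n_Rpl Inputs. The cause of these shifts was not tested. Leaving out 1 library at a time, 481 of 519 counts stayed within 1.5 times. The others gave 0 to 2 for NZ against ND in MG IPs, 0 to 1 for the difference in ZFP response in MG IPs and 0 to 2 in n_ZFP_a_Rpl IPs, and 0 to 1 for RZ against RD in hSyn IPs, 1 to 4 in n_ZFP_n_Rpl IPs and 0 to 2 in n_ZFP_a_Rpl Inputs. They gave 2 to 4 for NZ against ND in n_ZFP_n_Rpl IPs and 1 to 4 in the Inputs, and 4 to 7 for RZ against NZ in n_ZFP_n_Rpl Inputs. Depth limits the fold changes of Npsr1 in hSyn, where RD libraries held 0 to 4 reads.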

Other observations

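Over the 63 IP libraries, taken as deviations from their group means, the 5 genes most like Npsr1, Pla2g4e and Slc5a5 lay on the chromosome of the gene itself. For Npsr1 these were Dpy19l1 (r of 0.75, 0.31 Mb away), Ift46, Pus3, Adamts15 and Sorl1, all on chromosome 9. For Pla2g4e they were Ehd4 (0.88, 0.077 Mb away), Bloc1s6, Ncaph, Ganc and Scg5, all on chromosome 2. For Slc5a5 they were Tmem59l (0.83, 0.40 Mb away), Ints10, Man2b1, Scoc and Dctd, all on chromosome 8. Among the 12084 genes compared in the same way, 361 (2.99%) had all 5 on their own chromosome. This measure was chosen after the values were seen, and it is given as a description.

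The closest genes to Emilin2, Chdh and Klk6 by the same measure included genes of oligodendrocytes: Mag (0.86), Mog, Sept4 and Mal for Emilin2, Ppp1r14a (0.88) and Mag (0.85) for Chdh, and Aldh1l2 (0.89), Apod (0.88) and Trf for Klk6. AW551984 was closest to Ngb (0.86), Abcg2 to Osbpl1a (0.74), Pcdh20 to Mroh1 (0.64) and Sfmbt2 to Baz2b (0.59). The spread within groups, as a percentile among all genes over the 7 sets of libraries, was 97.1 to 99.3 for Slc5a5 and 95.3 to 98.8 for AW551984, and 65.3 to 92.2 for Sfmbt2.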
